A study of Mus musculus with 12 samples.

Results

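Translation factors whose mRNAs begin with a terminal oligopyrimidine (TOP) tract were followed in PER2::LUC mouse embryonic fibroblasts (MEFs) treated with deazaneplanocin A (DZ), adenine, or S-adenosylmethionine (SAM). The group holds 10 genes of the 12591 in the deposited table, chosen by gene symbol and matched by Ensembl identifier: Eef1a1, Eef1b2, Eef1d, Eef1g, Eef2, Eif3e, Eif3h, Eif4b, Pabpc1, and Tpt1. All 10 were found, and each passed the authors' filter of at least 1 CPM (reads of a gene per library scaled to a common size) in every library. DZ inhibits AHCY, the enzyme that removes S-adenosylhomocysteine, SAM is the methyl donor of the cell, and adenine is the purine base that SAM carries.

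The cells were labelled as embryonic fibroblasts of the strain C57 PER2::LUC, which carries a luciferase fused to PER2, a protein of the circadian clock. They were grown to confluence and then kept for 24 h in fresh medium with 3.3 mM HCl, which all 4 groups received. The CTL group got nothing more. The DZ group got 10 μM DZ, the adenine group 1 mM adenine, and the SAM group 1 mM SAM, and each of the 4 groups had 3 dishes. Nothing in the sources used here says that the dishes of a group came from separate cultures, so the p-values below measure the spread between dishes, which may be technical. Polyadenylated RNA was sequenced, so that the values are levels of mRNA and not of protein or of translation.

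A TOP mRNA starts at its cap with a C that is followed by an unbroken run of pyrimidines (C or U). The tract is bound by LARP1, and the kinase complex mTORC1 sets how well these mRNAs are translated, and through LARP1 also how well they are kept. The mRNAs of the cytosolic ribosomal proteins are the best known of the class, and many of the factors that work on the ribosome belong to it, so that ribosomes and their helpers can be made in step. In the elongation cycle, eEF1A brings aminoacyl-tRNA to the ribosome, the eEF1B complex recharges eEF1A with GTP, and eEF2 moves the ribosome along the mRNA.

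For 8 of the 10 genes, the first 30 bases of 1 annotated transcript start are shown because the tract defines the class. Each was read from the GENCODE vM39 transcripts of GRCm39, 5′ to 3′, with the tract in capitals and T for U.
Eef1a1: CTTTTTCgcaacgggtttgccgtcagaacg
Eef1d: CTCTCCTTTgcagtcctgagctcgcagttc
Eef1g: CCCTTTCTCTgcggaatcaccatggcggct
Eif3e: CCTTTCCCCCggcaagatggcggagtacga
Eif3h: CTCTTTCTTCCTgtctggctggaaacatgg
Eif4b: CCTTTgcgttctctctccctctcccaacat
Pabpc1: CCCCTTCTCCCCggcggttagtgctgagag
Tpt1: CCTTTTCCgcccgctcccccctccccccgc

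The tract was taken as a C at the first base followed by at least 4 pyrimidines, searched on the transcript strand only. It was 12 bases long in Eif3h and Pabpc1, 10 in Eef1g and Eif3e, 9 in Eef1d, 8 in Tpt1, 7 in Eef1a1, and 5 in Eif4b. The start shown is the most frequent one among the tract-starting transcripts of the gene, with ties settled by the longer tract. It need not be that of a majority, being shared by 3 of 8 such transcripts of Eef1g and 2 of 5 of Eif3h. All 10 genes had such a transcript, as did 67 of 79 cytosolic ribosomal protein genes (84.8%) and 2889 of the 10948 protein-coding genes in the table (26.4%). A gene with more annotated transcripts has more occasions to match, and the median number of transcripts was 35.5 for the 10 genes, 21 for the ribosomal protein genes, and 17 for the protein-coding genes. Counted by transcript, 15.0% of 339, 18.2% of 1864, and 3.71% of 234227 began with the tract. Pabpc1 had it in 13 of 37 transcripts and Eef1g in 8 of 26, whereas Eef1d had it in 1 of 37. The match is to annotated starts, and the starts used in these cells were not measured.

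The 5′ ends shown lie in first exons at chr9:78388924-78388953 (− strand, Eef1a1), chr15:75781126-75781155 (−, Eef1d), and chr19:8944557-8944586 (+, Eef1g). The others lie at chr15:43146075-43146104 (−, Eif3e), chr15:51728850-51728879 (−, Eif3h), chr15:101982358-101982387 (+, Eif4b), chr15:36609188-36609217 (−, Pabpc1), and chr14:76082770-76082799 (+, Tpt1). Chromosome 15 thus carries 5 of the 10 genes.

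The libraries held between 45649534 and 56789090 reads on the listed genes, recovered from the deposited log2 values, of which 100% came out whole within 0.05 of a read. The scale is log2 CPM as deposited, a difference on it is a log2 fold change, and a gene is called when limma's adjusted p is under 0.01. Of the fibroblast markers, 7 of 9 were listed, with a summed level of 8502 to 8895 CPM in CTL, 11203 to 12211 in DZ, 14388 to 16302 in adenine, and 10659 to 11487 in SAM. Dcn and Lum, which mark many fibroblasts, were not listed. Of the leukocyte markers 1 of 7 was listed, Cd68, at 3.03 to 4.0 CPM in CTL, 2.73 to 3.78 in DZ, 10.8 to 12.3 in adenine, and 15.6 to 17.7 in SAM. None of 4 endothelial and 4 epithelial markers was listed. The part that these differences have in the results below was not tested, and in bulk RNA fewer cells of a type and less RNA per cell cannot be told apart.

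In all 3 treatments 9 of the 10 genes fell and none rose. Among all genes the share called lower was 23.4% in DZ, 31.0% in adenine, and 35.7% in SAM, and the share called higher was 22.6%, 30.6%, and 33.7%. The median log2 fold change of the 10 genes was −0.54 in DZ, −0.79 in adenine, and −0.63 in SAM, beside medians of −0.0057, −0.0030, and −0.015 over all genes. The exception was Eef1d in each treatment. With libraries scaled to their total reads alone, the shares of all genes called lower and higher in SAM were 27.5% and 43.4%, with a median over all genes of 0.11, and 9 of the 10 genes were called lower and Eef1d higher. Quantile normalization, which forces the same distribution on every library, left 6 genes lower and 2 higher in SAM (Eef1d and Eef2), with a median over the 10 genes of −0.22, and 8 lower in DZ and 9 in adenine, with none higher. The shares of all genes then called lower and higher were 22.7% and 22.3% in DZ, 33.2% and 28.7% in adenine, and 36.3% and 32.9% in SAM. These 3 comparisons share the CTL dishes, so they are given side by side and are not independent of each other.

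Together the 10 genes took 2.65% to 2.71% of the reads in the CTL dishes. That share was 1.70% to 1.74% in DZ, 1.49% to 1.51% in adenine, and 1.66% to 1.72% in SAM, so that no treated dish overlapped a CTL dish. Gene by gene, all treated dishes lay below all CTL dishes for 9 of the 10 genes in DZ, 10 in adenine, and 9 in SAM, where this held for 33.6%, 37.7%, and 40.0% of all genes. The 79 ribosomal protein genes went from 4.77% to 4.94% of reads in CTL to 3.42% to 3.46% in DZ, 2.34% to 2.38% in adenine, and 2.67% to 2.95% in SAM. Reads of mitochondrially encoded genes made up 3.58% to 3.77% in CTL, 3.49% to 3.71% in DZ, 3.38% to 3.49% in adenine, and 3.09% to 3.61% in SAM, and their part in the fall was not tested. The integrity of the RNA was not compared between groups. The 10 genes are abundant. Of the 762 genes with a mean level of at least 7.82 log2 CPM, that of the least abundant of the 10, the share called lower was 33.2% in DZ, 46.9% in adenine, and 55.1% in SAM.

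**Figure D1:**
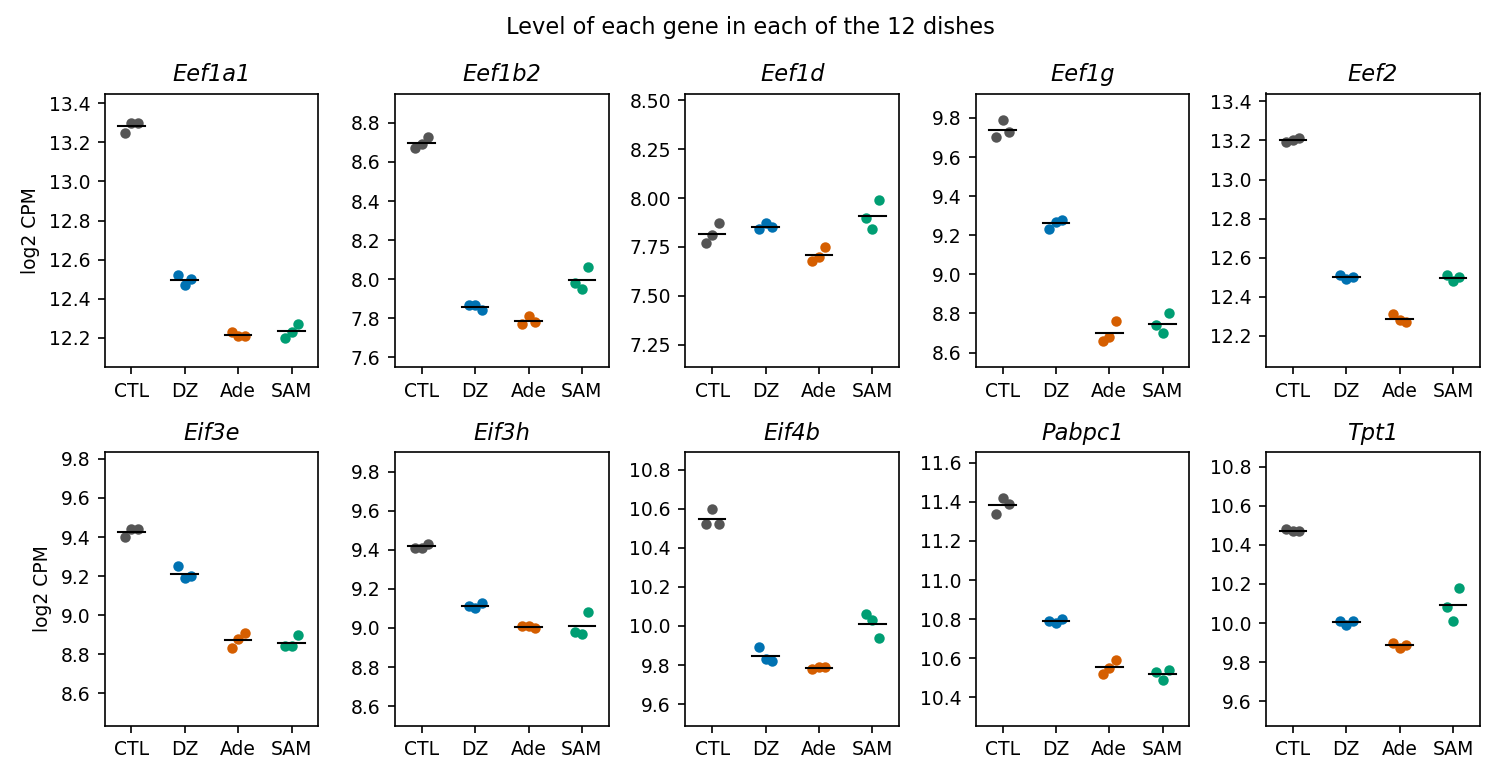
Level of each of the 10 genes (y axis, log2 CPM as deposited, each panel spanning an equal range around its own middle) in each of the 12 dishes (points), grouped on the x axis as CTL, DZ, adenine (Ade), and SAM, with a bar at the group mean. In 9 panels all 9 treated dishes lie under all 3 CTL dishes, and only in the panel of Eef1d do the DZ and SAM dishes overlap CTL.

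The elongation factors eEF1A and eEF2 were among the most abundant mRNAs of these cells and fell in every treatment. Eef1a1, which encodes eEF1A, stood at 13.25, 13.30, and 13.30 log2 CPM in the CTL dishes, and its mean over the 12 libraries was the fourth highest of the table. It stood at 12.52, 12.47, and 12.50 in DZ, at 12.23, 12.21, and 12.21 in adenine, and at 12.20, 12.23, and 12.27 in SAM. All 9 treated dishes were below all 3 CTL dishes, and adenine and SAM dishes overlapped each other. The log2 fold change was −0.79 (SE 0.035, adjusted p = 1.61e-10) in DZ, −1.07 (adjusted p = 8.00e-13) in adenine, and −1.05 (adjusted p = 4.32e-13) in SAM, which left 58.0%, 47.8%, and 48.4% of the CTL level. After quantile normalization Eef1a1 was not called in SAM (−0.11, adjusted p = 0.236). By the share of all genes with a lower fold change, Eef1a1 was in the lowest 2.01% in DZ, 3.54% in adenine, and 4.83% in SAM.

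Eef2, the translocase, stood at 13.19, 13.20, and 13.21 log2 CPM in CTL and at 12.51, 12.49, and 12.50 in DZ. It stood at 12.31, 12.28, and 12.27 in adenine and at 12.51, 12.48, and 12.50 in SAM. DZ and SAM dishes overlapped, and the adenine dishes lay beneath them. The log2 fold changes were −0.70 (SE 0.033, adjusted p = 2.64e-10), −0.92 (adjusted p = 1.76e-12), and −0.70 (adjusted p = 2.10e-11) in DZ, adenine, and SAM. After quantile normalization Eef2 was not called in DZ (−0.21, adjusted p = 0.0181) and its sign in SAM turned (0.50, adjusted p = 1.05e-05).

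Of the 3 subunits of eEF1B, 2 fell in every treatment. Eef1b2, an exchange subunit that recharges eEF1A with GTP, stood at 8.67, 8.69, and 8.73 log2 CPM in CTL, at 7.87, 7.87, and 7.84 in DZ, at 7.77, 7.81, and 7.78 in adenine, and at 7.98, 7.95, and 8.06 in SAM. Its log2 fold change was −0.84 (SE 0.031, adjusted p = 1.89e-11) in DZ, −0.91 (adjusted p = 1.03e-12) in adenine, and −0.70 (adjusted p = 9.89e-12) in SAM.

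Eef1g, the scaffold subunit, stood at 9.70, 9.79, and 9.73 log2 CPM in CTL and at 9.23, 9.27, and 9.28 in DZ. It stood at 8.66, 8.68, and 8.76 in adenine and at 8.74, 8.70, and 8.80 in SAM. The CTL dishes were the highest, the DZ dishes came next, and the adenine and SAM dishes overlapped each other at the bottom. The log2 fold change was −0.48 (SE 0.035, adjusted p = 2.59e-08) in DZ, −1.04 (adjusted p = 1.01e-12) in adenine, and −0.99 (adjusted p = 7.48e-13) in SAM.

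Eef1d, the other exchange subunit, was the gene that did not pass the test in any comparison with CTL, although with the replicate number as a block it did in adenine (adjusted p = 0.00714). After median centring all 10 genes were called lower in adenine, beside 35.4% of all genes, and Eef1d had −0.16 there (adjusted p = 0.0012). Its levels were 7.77, 7.81, and 7.87 log2 CPM in CTL, 7.84, 7.87, and 7.85 in DZ, 7.68, 7.70, and 7.75 in adenine, and 7.90, 7.84, and 7.99 in SAM. The DZ and SAM dishes overlapped the CTL dishes, and the adenine dishes lay just below them. The differences were 0.035 in DZ (95% interval −0.043 to 0.11, adjusted p = 0.423), −0.11 in adenine (−0.18 to −0.029, adjusted p = 0.0165), and 0.091 in SAM (0.014 to 0.17, adjusted p = 0.0324). Without SAM replicate 2 the difference in SAM was 0.12 and passed the test (adjusted p = 0.00733). The highest of these interval bounds in size, 0.18, is smaller than the fall of each other gene in each treatment. The canonical annotated transcript of Eef1d, at 4234 bases, is longer than those of the other 9 genes, and gene-level values do not show which Eef1d transcripts were present.

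The ratio of Eef1d to Eef1b2 was higher in every treated dish than in every CTL dish. On the log2 scale of CPM ratios it was −0.90, −0.88, and −0.86 in the CTL dishes and −0.03, 0, and 0.01 in the DZ dishes. It was −0.08, −0.11, and −0.03 in adenine and −0.09, −0.11, and −0.07 in SAM. In this ratio the treatments thus came within a narrow band, 0.87 (DZ), 0.80 (adenine), and 0.79 (SAM) above CTL. The log2 ratio of Eef1d to Eef1g rose less evenly, by 0.51 in DZ, 0.93 in adenine, and 1.08 in SAM. A two-sided exact permutation test gave p = 0.1 for each of these differences, the smallest p that 3 dishes against 3 allow.

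The ratio of Eef1g to Eef1b2 also separated the treatments. Its log2 value was 1.04 ± 0.048 (SD, n = 3) in CTL, 1.40 ± 0.045 in DZ, 0.92 ± 0.060 in adenine, and 0.75 ± 0.0064 in SAM. It was higher than CTL in DZ by 0.36 and lower in adenine and SAM, with differences of −0.13 and −0.29, each without overlap of dishes and each at the smallest exact permutation p of 0.1. The log2 ratio of Eef1a1 to Eef2 differed from CTL by −0.086 in DZ, −0.15 in adenine, and −0.34 in SAM, again each at an exact permutation p of 0.1. Each of these ratios is taken within a library, so that a single scaling factor cancels apart from the small count added before the logarithm. Quantile normalization is not a single factor per library and does not cancel.

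**Figure D2:**
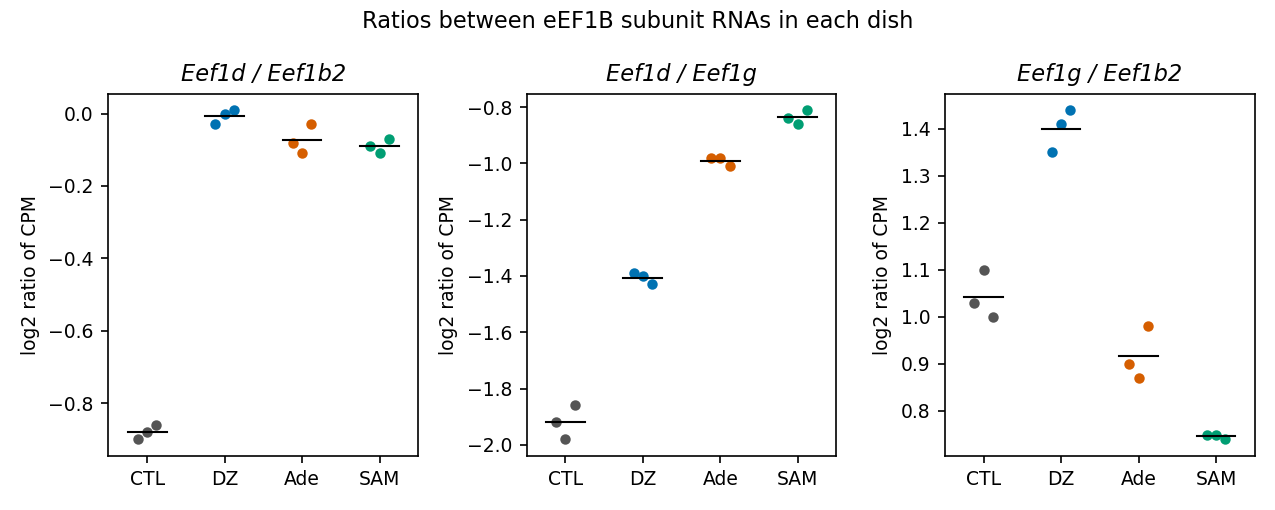
Log2 ratios of CPM between the mRNAs of the eEF1B subunits (y axis, one panel per pair) in each dish (points) of the 4 groups on the x axis, with bars at the group means. In the left panel the CTL dishes lie from −0.90 to −0.86 and all treated dishes from −0.11 to 0.01. In the middle panel the CTL dishes lie from −1.98 to −1.86 and all treated dishes from −1.43 to −0.81. In the right panel DZ lies above CTL while adenine and SAM lie below it.

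All 3 initiation factors of the group fell in every treatment. Eif4b, which helps the helicase eIF4A to open mRNA leaders, stood at 10.52, 10.60, and 10.52 log2 CPM in CTL, at 9.89, 9.83, and 9.82 in DZ, at 9.78, 9.79, and 9.79 in adenine, and at 10.06, 10.03, and 9.94 in SAM. Its log2 fold changes were −0.70 (SE 0.035, adjusted p = 4.39e-10), −0.76 (adjusted p = 2.41e-11), and −0.54 (adjusted p = 1.03e-09). The SAM dishes lay above the dishes of the other treatments and below CTL.

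Eif3e and Eif3h encode subunits of eIF3, the large complex that holds the small ribosomal subunit during initiation. Eif3e stood at 9.40, 9.44, and 9.44 log2 CPM in CTL, at 9.25, 9.19, and 9.20 in DZ, at 8.83, 8.88, and 8.91 in adenine, and at 8.84, 8.84, and 8.90 in SAM. Its log2 fold changes were −0.21 (SE 0.029, adjusted p = 1.95e-05) in DZ, −0.55 (adjusted p = 1.39e-10) in adenine, and −0.57 (adjusted p = 7.02e-11) in SAM. Eif3h stood at 9.41, 9.41, and 9.43 log2 CPM in CTL, at 9.11, 9.10, and 9.13 in DZ, at 9.01, 9.01, and 9.0 in adenine, and at 8.98, 8.97, and 9.08 in SAM. Its log2 fold changes were −0.30 (SE 0.030, adjusted p = 5.94e-07), −0.41 (adjusted p = 6.01e-09), and −0.41 (adjusted p = 4.59e-09). For neither gene did a treated dish reach the CTL range.

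Pabpc1, the cytoplasmic poly(A)-binding protein that joins the mRNA tail to the cap complex, stood at 11.34, 11.42, and 11.39 log2 CPM in CTL and at 10.79, 10.78, and 10.80 in DZ. It stood at 10.52, 10.55, and 10.59 in adenine and at 10.53, 10.49, and 10.54 in SAM. As for Eef1g, the DZ dishes lay between CTL and the overlapping adenine and SAM dishes. The log2 fold changes were −0.59 (SE 0.030, adjusted p = 5.43e-10), −0.83 (adjusted p = 1.98e-12), and −0.87 (adjusted p = 6.54e-13).

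Tpt1 encodes TCTP, a small growth-related protein that binds elongation factors and whose mRNA is a classic TOP mRNA. It stood at 10.48, 10.47, and 10.47 log2 CPM in CTL, at 10.01, 9.99, and 10.01 in DZ, at 9.90, 9.87, and 9.89 in adenine, and at 10.08, 10.01, and 10.18 in SAM. Its log2 fold changes were −0.47 (SE 0.035, adjusted p = 2.73e-08), −0.58 (adjusted p = 5.25e-10), and −0.38 (adjusted p = 6.32e-08). After quantile normalization Tpt1 was not called in SAM (−0.16, adjusted p = 0.0135).

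Per kilobase of the canonical transcript, the CTL level was 5558 CPM for Eef1a1, 3051 for Eef2, 1138 for Tpt1, 948 for Pabpc1, 458 for Eef1g, 434 for Eif3e, 374 for Eif4b, 226 for Eif3h, 214 for Eef1b2, and 53.3 for Eef1d. These per-length levels depend on the transcript chosen, above all for Eef1d. In DZ the level of Eef1a1 was 3224 CPM per kb and in adenine 2656, still the highest of the 10 genes.

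**Figure D3:**
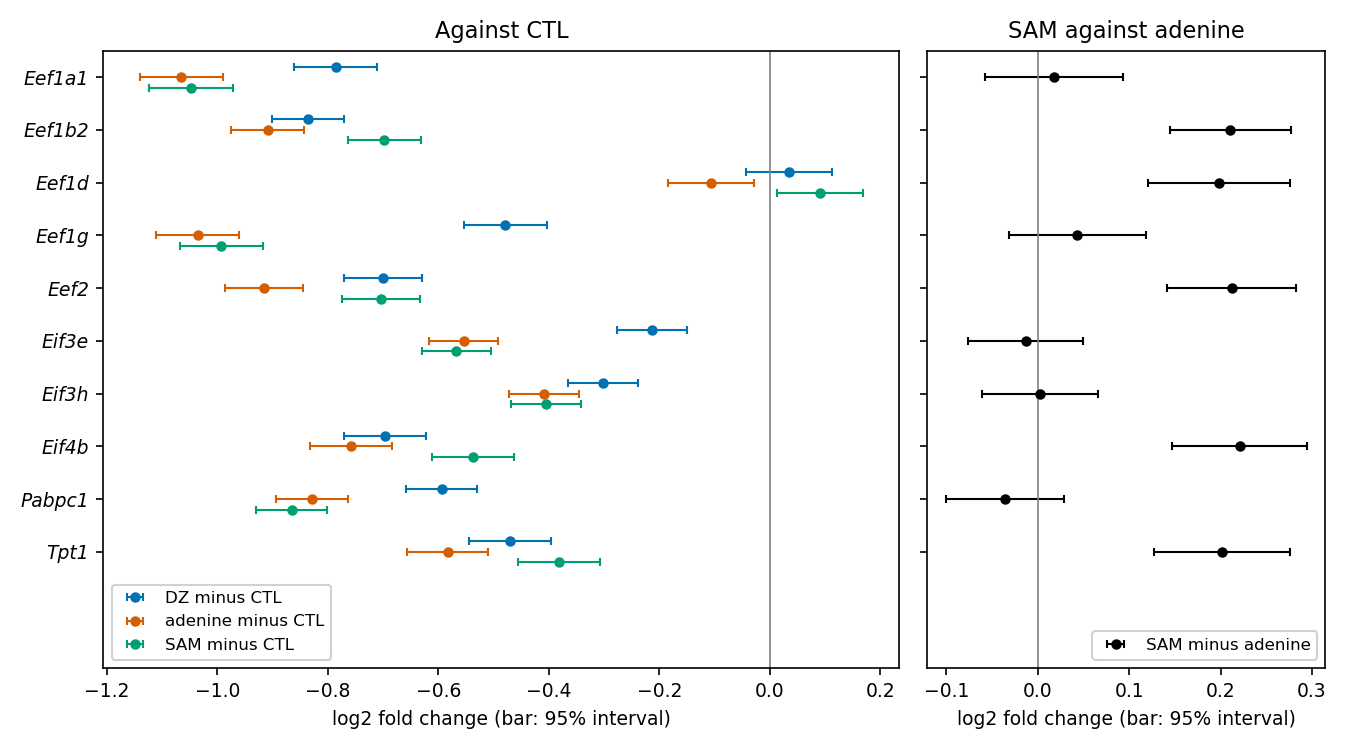
Log2 fold change of each gene (x axis) with its 95% interval from limma (bars), with DZ, adenine, and SAM against CTL in the left panel and SAM against adenine in the right panel. Against CTL 9 genes lie left of 0 in all 3 treatments, from −0.21 to −1.07, and against adenine 5 genes lie right of 0 by about 0.20 to 0.22.

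SAM and adenine were given at the same concentration and for the same time, so their dishes can be compared directly, as the only matched pair in the series. Of the 10 genes, 5 were higher in SAM than in adenine and none was lower, where 20.8% of all genes were called higher and 22.0% lower. Those were Eif4b with a log2 difference of 0.22 (adjusted p = 7.77e-05), Eef2 with 0.21 (adjusted p = 7.13e-05), Eef1b2 with 0.21 (adjusted p = 4.01e-05), Tpt1 with 0.20 (adjusted p = 1.73e-04), and Eef1d with 0.20 (adjusted p = 3.10e-04). For each of these 5 genes all SAM dishes were above all adenine dishes, as they were for 30.6% of all genes, and the levels in SAM were 115% to 117% of those in adenine. The other 5 genes were not called, and their intervals bound the difference closely only for the deposited scaling. They were 0.018 (95% interval −0.058 to 0.093) for Eef1a1, 0.043 (−0.032 to 0.12) for Eef1g, −0.013 (−0.076 to 0.050) for Eif3e, 0.0025 (−0.061 to 0.066) for Eif3h, and −0.036 (−0.10 to 0.028) for Pabpc1. Under quantile normalization 9 genes were called higher in SAM, where 22.8% of all genes were called higher and 20.6% lower. The 5 genes with the intervals above then all lay beyond them, with 0.46 for Eef1a1 and 0.17 for Eef1g. Eif3e had 0.11, Eif3h 0.13, and Pabpc1 0.052. Under total-count scaling 5 genes were called higher, where 28.4% of all genes were called higher and 16.5% lower. DZ was given at a lower concentration, so its values stand beside those of adenine and SAM with no test of the difference.

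Across the 12 libraries, 9 of the 10 genes followed the mean of the others with a Pearson r of 0.89 (Eif3e) to 0.99 (Eef1a1), and Eef1d with 0.13. These are descriptions over 12 libraries that fall into 4 groups, so they mostly restate the differences between groups. Outside the 10 genes and the ribosomal proteins, the genes most like the mean of the 10 were Pcbp2 (r = 0.997), Cox7a2l (0.997), which helps respiratory chain complexes to join, the pseudogenes Gm10263 and Gm10443 (0.994 each), and Zfas1 (0.994), a noncoding RNA. Pcbp2, an RNA-binding protein, had the smaller log2 fold changes of −0.29 in DZ, −0.43 in adenine, and −0.34 in SAM, whereas Zfas1 had −1.12, −1.70, and −1.53.

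Abundant translation factor mRNAs have left many processed pseudogenes in the genome, with which reads can be shared. Of the 1263 pseudogenes in the table, 27 were at least 90% identical to the mRNA of one of the 10 genes over at least 50% of their length. They belong to 9 of the genes, with 12 rows for Eef1a1, 3 each for Eef2 and Tpt1, and none for Eif4b. They were chosen after their values had been seen. In DZ, adenine, and SAM, 23, 25, and 24 of the 27 rows were called lower and none higher. The log2 fold change of a row differed from that of its parent by a median of 0.052 in DZ, 0.048 in adenine, and 0.049 in SAM, and by less than 0.2 in 23, 26, and 25 of 27 rows. Tpt1-ps3, identical to Tpt1 over 519 bases, stood at 9.18 log2 CPM in CTL and changed by −0.47, −0.58, and −0.38, the values of Tpt1 itself. Gm6548, a pseudogene of Eef1a1, was the farthest from its parent in DZ, at −0.23 (adjusted p = 0.0507), and in SAM, at −0.68. In adenine Gm12009, at −1.19, was the farthest from its parent Eef2.

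Pseudogene rows held 28.9% to 30.9% of the joint reads of Tpt1 and its pseudogenes, 26.1% to 27.7% for Eef1g, and 16.7% to 19.0% for Eef1a1. For each of the remaining genes with such rows they held at most 3.72%. The levels of Tpt1, Eef1g, and Eef1a1 are therefore uncertain by such shares. Pseudogenes that failed the filter of 1 CPM are not in these shares. With these reads added to the parent genes, all counts of called genes were as before. As most rows changed much like their parents, the addition had little room to alter a call.

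**Figure D4:**
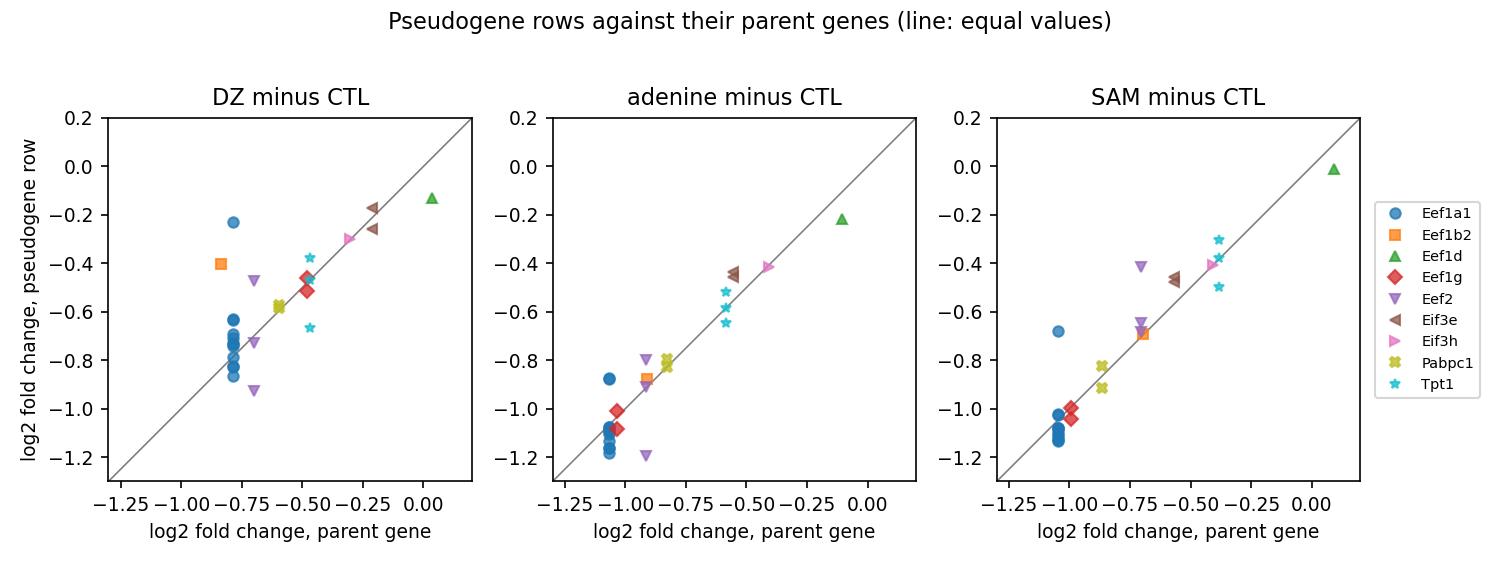
Log2 fold change of each of the 27 pseudogene rows (y axis) against that of its parent gene (x axis) for DZ, adenine, and SAM against CTL, with the parent marked by colour and shape and a line where both are equal. Most rows lie close to the line, and the point farthest from it is Gm6548 in the DZ panel, at −0.23 where Eef1a1 is at −0.79.

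Other genes of the same class were compared with the group by counts. Of 10 further genes with reported TOP mRNAs, 8 were called lower and none higher in DZ (median −0.42), 8 and none in adenine (median −0.70), and 9 and 1 in SAM (median −0.65). Npm1, a nucleolar chaperone, fell with log2 fold changes of −0.51, −1.17, and −1.34, and Gas5, a noncoding host of small nucleolar RNAs, with −0.87, −1.72, and −2.09. Vim, the intermediate filament protein vimentin, was the gene called higher in SAM (0.43, adjusted p = 1.44e-08), with −0.39 in DZ and 0.027 in adenine (adjusted p = 0.499). The other genes not called were Hnrnpa1, with −0.066 in DZ (adjusted p = 0.0966) and −0.050 in adenine (adjusted p = 0.181), and Eif3a, with −0.14 in DZ (adjusted p = 0.0457). Hnrnpa1 had −0.13 in SAM, where its sign turned under quantile normalization (0.20). These 3 genes were singled out after their values were seen. Of the 79 ribosomal protein genes 75, 79, and 78 were called lower in DZ, adenine, and SAM and none was called higher, with medians of −0.55, −1.11, and −0.91. Rpl3 fell with log2 fold changes of −0.68, −1.24, and −1.43, Rps7 with −0.58, −1.67, and −1.70, and Rps9 with −0.65, −1.16, and −1.33. The median of the 10 translation factors lay close to that of the ribosomal proteins in DZ, −0.54 and −0.55, and less far down in adenine, −0.79 and −1.11. In SAM against adenine 45 ribosomal protein genes were higher and 2 lower.

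The other initiation factors did not all share this pattern. Of 11 further eIF3 subunits, 3 were higher and 4 lower in DZ, whereas 10 were lower in adenine and 9 in SAM, with none higher (medians −0.075, −0.57, and −0.56). Eif3f, which is also among the further TOP mRNAs above, fell in each treatment, with −0.60, −0.92, and −0.64, as did Eif3m, with −0.40, −0.82, and −0.91. Eif3c rose in DZ (0.23) and fell in adenine (−0.19) and SAM (−0.84), and its sign in adenine turned under quantile normalization (0.042, adjusted p = 0.191).

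Of 10 genes of the cap-binding complex eIF4F, its helpers, and its repressors, 1 was higher and 3 lower in DZ, 1 and 7 in adenine, and none and 7 in SAM. Eif4g3, a scaffold of the complex, fell with −0.64, −1.13, and −1.56, and Eif4a2, a helicase, with −0.43, −0.46, and −0.95. Eif4ebp1, a repressor of the complex and a target of mTORC1, rose in DZ (0.34) and fell in adenine (−0.19) and SAM (−1.21). Of 8 genes of eIF2, which brings the initiator tRNA, and of its exchange factor eIF2B, 4 were higher and 1 lower in DZ, and 6 were lower in adenine and 4 in SAM, none higher. Eif2s1 rose in DZ (0.39), and its values in adenine and SAM were −0.051 (adjusted p = 0.237) and −0.096 (adjusted p = 0.0311). Eif2s2 rose in DZ (0.18) and fell in adenine (−0.33) and SAM (−0.79), and Eif2s3x fell in all 3 treatments (−0.28, −0.40, and −0.57). Of 7 other initiation factors 3 were higher and 2 lower in DZ, and 4 were lower in adenine and 3 in SAM. Among these Eif1 fell with −0.36, −0.61, and −0.96, and Eif1a and Eif6 rose in DZ (0.19 and 0.34) and fell in adenine (−0.18 and −0.24) and SAM (−0.54 and −0.14).

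Of 4 further genes listed under elongation, of which Eef2k encodes a kinase and not a factor, 1 was higher and 1 lower in DZ, 2 were lower in adenine, and 3 in SAM. Eef2k, the kinase that inhibits eEF2, fell with log2 fold changes of −0.14 (adjusted p = 0.00727), −0.75, and −0.82 in DZ, adenine, and SAM. Eif5a, which helps the ribosome past difficult stretches, rose in DZ (0.27), with −0.030 in adenine (adjusted p = 0.448) and −0.12 in SAM (adjusted p = 0.00491), where its sign turned under quantile normalization (0.18) and total-count scaling (6.92e-04). Eef1e1 had 0.10 in DZ (adjusted p = 0.130) and fell in adenine (−0.30) and SAM (−0.40). The 3 termination and recycling factors listed, Etf1, Gspt1, and Abce1, all rose in DZ by 0.21 to 0.26, while Etf1 and Abce1 fell in adenine (−0.29 and −0.24) and SAM (−0.50 and −0.33).

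Of 5 relatives and partners of the poly(A)-binding protein, 1 was higher and 2 lower in DZ, 3 were lower in adenine, and 4 in SAM. Pabpc4, a close relative of Pabpc1, fell with −0.53, −0.89, and −1.17, and Paip1, which binds both eIF4A and the poly(A)-binding protein, with −0.29, −0.28, and −0.33. Paip2b, a repressor, rose in DZ (0.24), with −0.028 in adenine (adjusted p = 0.496), and fell in SAM (−0.16).

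Because these reactions draw on SAM, enzymes that use SAM to modify eEF1A or eEF2 were counted too. Of 9 such genes, 6 were higher and none lower in DZ, 1 and 2 in adenine, and 2 and 3 in SAM (medians 0.37, 0.075, and −0.14). Eef1akmt1, a lysine methyltransferase of eEF1A, rose in all 3 treatments (0.48, 0.45, and 0.67). Eef1akmt2, another of this kind, had −0.21 in DZ (adjusted p = 0.0139) and fell in adenine (−0.29) and SAM (−0.57), and Eef2kmt, which methylates eEF2, had −0.26 in DZ (adjusted p = 0.0616) and fell in adenine (−0.83) and SAM (−0.91). Methylation of the factors themselves was not measured.

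Of 17 genes of the mTORC1 pathway and regulators of TOP mRNAs, 2 were higher and 4 lower in DZ, 3 and 5 in adenine, and 4 and 6 in SAM (medians 0.048, −0.084, and −0.093), so that the shares called lower were near those of all genes. Sesn2, a leucine sensor upstream of mTORC1, had −0.031 in DZ (adjusted p = 0.491) and fell in adenine (−0.38) and SAM (−1.74). Rheb, the GTPase that activates mTORC1, fell with −0.20, −0.29, and −0.50, and Akt1s1, an inhibitory subunit, had 0.079 in DZ (adjusted p = 0.0679) and fell in adenine (−0.32) and SAM (−0.66). Genes of the list called higher, named after their values were seen, included Deptor, another inhibitory subunit (0.55 in adenine and 0.62 in SAM), and Mtor, the kinase itself (0.33 and 0.27). Larp1, named here outside the rule because it binds the TOP tract, rose in DZ (0.24) and fell in adenine (−0.14) and SAM (−0.45), and its sign in adenine turned under quantile normalization (0.0048, adjusted p = 0.903).

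**Figure D5:**
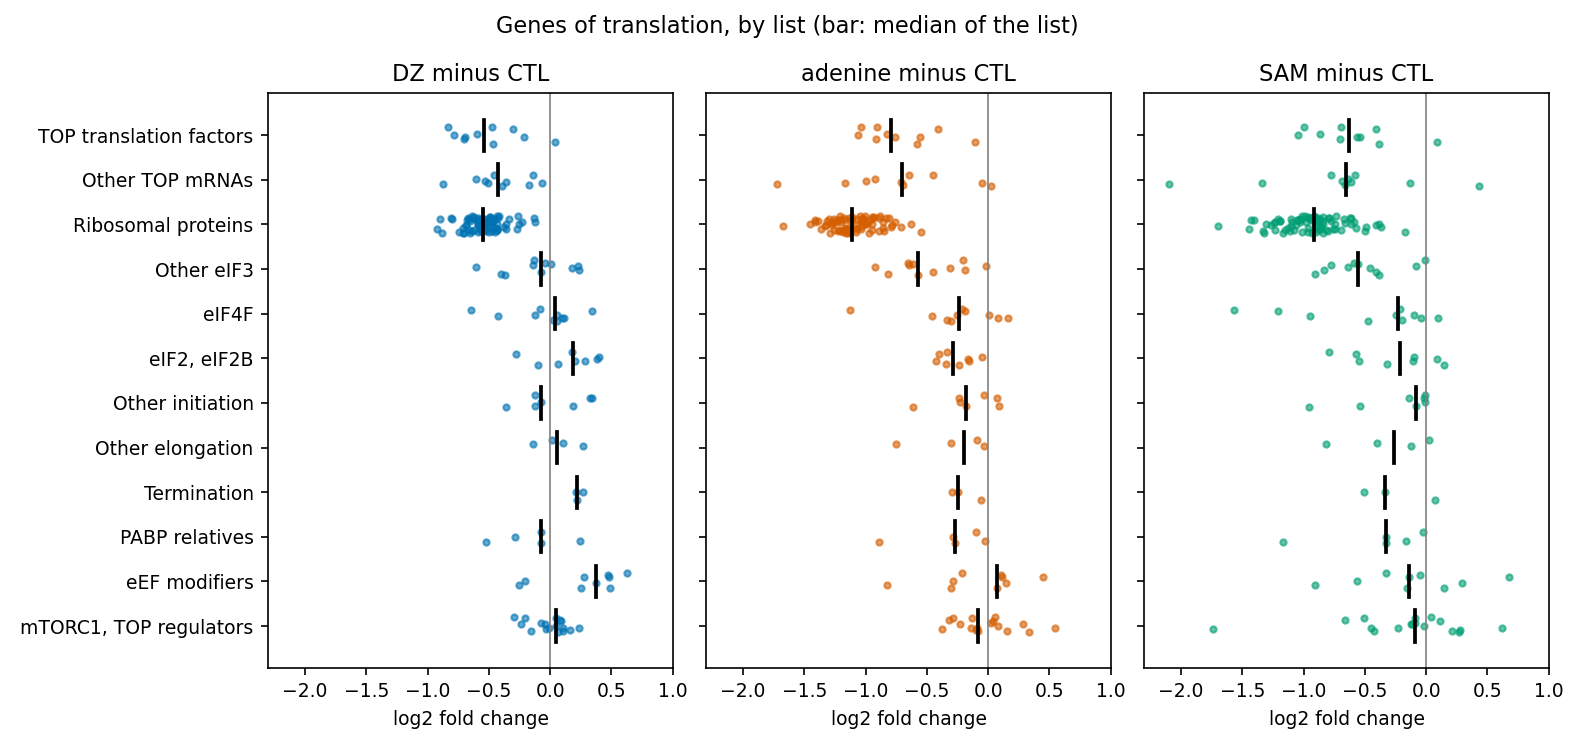
Log2 fold change (x axis) of each gene (points) in lists of genes of translation (y axis) for DZ, adenine, and SAM against CTL, with a bar at the median of each list. The TOP translation factors, the other TOP mRNAs, and the ribosomal proteins have medians of −0.42 or lower in every panel, whereas in DZ the medians of the other lists lie between −0.077 and 0.37.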

How the data were processed

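RNA of PER2::LUC MEFs was sequenced in 12 libraries, 3 dishes in each of 4 groups. The authors trimmed reads with Trimmomatic, aligned them to GRCm39 with HISAT2 (GENCODE vM27), quantified them with StringTie, filtered at 1 CPM in every sample, and deposited log2 CPM from edgeR. Whole reads were recovered for a prior count of 2, and as StringTie derives them from coverage, they are estimates. The deposited log2 values of all 12591 genes were tested in 1 model with limma 3.58.1 (R 4.3.3; lmFit, eBayes with a trend), with Benjamini-Hochberg adjustment over all genes and an FDR of 0.01, after a test on simulated data. Ratios were tested by exact permutation. Symbols and transcript starts came from GENCODE vM39 (12575 identifiers matched), and the transcript starts of Eef1b2 and Eef2 are not reported here. Pseudogenes were matched with blastn 2.17.0. Python 3.11.15, pandas 2.3.3, and matplotlib 3.10.9 made the tables and plots.

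The 10 genes, the gene lists, and the tests were chosen with earlier results of these data known. Beside the 10 genes, up to 3 genes per list with the smallest adjusted p in a comparison with CTL were named, and the 5 genes of most similar pattern among those averaging 3 log2 CPM or more. Same-numbered dishes of different groups had deviations with a Pearson r of −0.142 to 0.181 over 18 pairs, and differently numbered dishes one of −0.15 to 0.117. The main model took the dishes as unpaired, but these overlapping ranges cannot exclude a pairing. The alternatives were other variance models, filters, scalings, pseudocounts, and thresholds, voom, a separate model of 2 groups, a replicate block, protein-coding genes only, and leaving out each dish. Adding pseudogene reads and reading the gene lists under other scalings were chosen after seeing the data.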

Additional observations from a re-analysis of the deposited data

How the results depend on the processing

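The scaling of the libraries bears most on these results. With the 9 called genes read under 21 alternatives in each comparison with CTL, 566 of 567 values stayed negative and 556 stayed called. Many of the alternatives change only the variance model, the genes kept, or the threshold. Those leave the fold change as it was and cannot turn a sign, and an FDR of 0.05 cannot lose a call. The exceptions were Eef2 in SAM under quantile normalization (0.50), 3 calls lost under quantile normalization (Eef2 in DZ, Eef1a1 and Tpt1 in SAM), and 7 under a required log2 fold change of 0.5, which by construction left 5 genes called in DZ and 0 in SAM against adenine. The median of the 10 genes in DZ, adenine, and SAM was −0.55, −0.84, and −0.67 after median centring, −0.37, −0.49, and −0.22 after quantile normalization, and −0.51, −0.73, and −0.51 after total-count scaling, which moved the median of all genes in SAM to 0.11. Eef1d was called in adenine under median centring (−0.16), an FDR of 0.05, a separate model, and the replicate block (adjusted p = 0.00714), and in SAM under quantile normalization (0.21), total-count scaling (0.21), an FDR of 0.05, and without SAM replicate 2 (0.12). The replicate block changed no other call of the 10 genes, against CTL or in SAM against adenine.

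In SAM against adenine, quantile normalization called 9 genes with a median of 0.24, and total-count scaling gave a median of 0.18. Signs turned there only for uncalled genes, for Eif3e and Pabpc1 under quantile normalization (0.11 and 0.052) and total-count scaling (0.047 and 0.024), and when 1 dish was left out. Then Eif3e ran from −0.035 to 0.0054 (without Adenine replicate 3), Eef1a1 from −9.2e-04 (without SAM replicate 3) to 0.034, and Eif3h from −0.033 (without SAM replicate 3), with −5.9e-04 without Adenine replicate 3, to 0.024. Leaving out 1 dish at a time gave medians of −0.56 to −0.53 in DZ, −0.81 to −0.77 in adenine, −0.65 to −0.62 in SAM, and 0.087 to 0.14 in SAM against adenine. The medians of the further TOP mRNAs and of the ribosomal proteins kept their sign against CTL under the other scalings, whereas in SAM against adenine that of the further TOP mRNAs went from −0.025 to 0.067 after quantile normalization and 0.035 after total-count scaling. Counts in the other lists moved more, such as genes of the mTORC1 pathway called lower in adenine (5, and 9 after median centring) and higher in SAM (4, and 7 after total-count scaling), and eIF4F genes called lower in SAM (7, and 4 after quantile normalization). The 3 dishes per group limit every exact test to p = 0.1. The lowest recovered count of any gene in any library was 46 reads, and the recovered reads are themselves estimates. The causes of these changes were not tested.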
